A study of Mus musculus with 2 samples.

Results

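The genes described are 39 that encode mitotic kinases and cyclins, spindle checkpoint and kinetochore proteins, the chromosomal passenger complex, condensin, and factors of anaphase and cytokinesis. They were listed by function, and 38 were measured, out of 18193 genes with a value in the series. Ccnb1, which encodes cyclin B1, was not analysed here. The series holds RNA from mouse B cells of male mice on a C57 background, with 1 array titled as miR-155 knockout (genotype entry mir155 KO) and 1 titled as wild-type (genotype entry mir155 WT). Its design entry calls the cells cultured and activated. The growth protocol instead describes haematopoietic progenitors kept in G-CSF and SCF for 6 days, so the labels disagree on the culture. Both samples received cycloheximide, a blocker of translation elongation, at 100 ug/ml for 8 min before harvest. The sources used here do not give the knockout allele, the stimulus that activated the cells or the number of animals behind each array.

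Cells enter mitosis when CDK1 bound to a B-type cyclin becomes active, and the aurora and polo kinases then drive chromosome condensation and spindle assembly. Kinetochores attach chromosomes to microtubules, and the spindle checkpoint holds the anaphase-promoting complex in check until all of them are attached. Most of the genes involved are transcribed in late S phase and G2, so their RNA is abundant in dividing cells and scarce in resting ones. Resting B cells in the spleen hardly divide, and activated B cells divide quickly.

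The titles and genotype entries assign the genotypes as above, and the source names assign the opposite genotype to both arrays. Values follow the titles, so arrays are called knockout-titled and wild-type-titled, and every sign below turns over if the source names are right. Mir155hg, the transcript from which miR-155 is cut, had a log2 level of 10.88 on the knockout-titled and 6.63 on the wild-type-titled array, against the titles. Its difference of 4.25 was the highest of all 18193 genes, and the 6.63 lies under the level for expression given next. Whether its probe set lies in the deleted part was not determined, which bears only on what a knockout array would read. Which labels are right was not settled here. A gene counted as expressed where the mean of both arrays was 6.71 or more, the median over the non-control probe sets. All 9 measured B cell markers were expressed, and all were higher on the knockout-titled array, as most mitotic genes were. Their median difference was 0.18, from 0.00 (Cd74) to 0.50 (Blk), with summed log2 levels of 101.6 (knockout-titled) and 99.8 (wild-type-titled). Of 11 neutrophil precursor markers 2 were expressed, and of 7 progenitor markers 1 was (Flt3, -0.27), while Kit and Cd34 were below 6.71 on both arrays. Of 9 macrophage markers 8 were expressed, with a median difference of -0.22 and summed levels of 59.3 and 60.8. Mean levels of those expressed ran from 6.79 (Fcgr1) to 9.17 (Tyrobp), with Lyz2, Cd68 and Cd14 near 7.0. Not all lay so near 6.71, as Ccr2 was at 8.23 and Csf1r at 7.59. Whether macrophages were present was not tested. Of 7 dendritic cell markers 4 were expressed (median -0.20, summed levels 42.6 and 43.0), and of 7 T cell markers 4 (median -0.02). The part of these shifts in the mitotic gene differences was not tested.

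Promoter sequences are shown first because most of these genes share an element that is well known in mitotic promoters. The cell cycle genes homology region, or CHR, binds the DREAM and MuvB complexes, which repress these genes in resting cells and, with B-MYB and FOXM1, activate them in G2. It usually stands downstream of CCAAT boxes, which bind NF-Y. The lines below give 150 bases before the annotated start site and 30 bases from it, 5′ to 3′ on the gene's strand, from RefSeq on GRCm38.p6. Capitals mark matches on either strand to the CHR (TTTGAA or TTCGAA) and to CCAAT. Ccnb2 lies at chr9:70421525-70421704, minus strand, Cdk1 at chr10:69352883-69353062, minus strand, Aspm at chr1:139454623-139454802, plus strand, and Ect2 at chr3:27153825-27154004, minus strand. These 4 show the common layout. Nuf2 lies at chr1:169531435-169531614, minus strand, Mad2l1 at chr6:66535071-66535250, plus strand, and Pttg1 at chr11:43425952-43426131, minus strand. These 3 hold neither motif, and include Nuf2, one of the highest differences, and the lowest pair, Mad2l1 and Pttg1. Birc5 and Ncaph, not printed, also hold neither and were higher on the knockout-titled array, by 0.48 and 0.43.
Ccnb2: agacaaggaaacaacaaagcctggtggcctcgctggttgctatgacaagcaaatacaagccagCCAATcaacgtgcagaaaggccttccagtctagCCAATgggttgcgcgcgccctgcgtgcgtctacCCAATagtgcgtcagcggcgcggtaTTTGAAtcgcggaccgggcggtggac
Cdk1: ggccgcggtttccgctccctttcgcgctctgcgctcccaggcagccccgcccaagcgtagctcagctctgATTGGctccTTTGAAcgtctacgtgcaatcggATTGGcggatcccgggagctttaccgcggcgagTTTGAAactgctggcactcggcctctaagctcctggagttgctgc
Aspm: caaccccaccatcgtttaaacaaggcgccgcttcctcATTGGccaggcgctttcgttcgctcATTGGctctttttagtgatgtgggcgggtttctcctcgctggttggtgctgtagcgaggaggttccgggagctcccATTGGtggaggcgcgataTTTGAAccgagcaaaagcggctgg
Ect2: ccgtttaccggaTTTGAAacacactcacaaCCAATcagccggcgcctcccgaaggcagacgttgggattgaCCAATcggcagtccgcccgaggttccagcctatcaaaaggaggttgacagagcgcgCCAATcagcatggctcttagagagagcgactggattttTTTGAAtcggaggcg
Nuf2: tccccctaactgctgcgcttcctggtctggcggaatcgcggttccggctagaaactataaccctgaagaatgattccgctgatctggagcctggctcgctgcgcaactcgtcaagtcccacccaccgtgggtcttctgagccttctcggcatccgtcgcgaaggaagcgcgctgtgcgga
Mad2l1: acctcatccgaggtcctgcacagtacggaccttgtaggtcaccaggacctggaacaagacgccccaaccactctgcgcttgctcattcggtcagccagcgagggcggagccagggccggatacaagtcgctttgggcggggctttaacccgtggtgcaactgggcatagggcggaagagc
Pttg1: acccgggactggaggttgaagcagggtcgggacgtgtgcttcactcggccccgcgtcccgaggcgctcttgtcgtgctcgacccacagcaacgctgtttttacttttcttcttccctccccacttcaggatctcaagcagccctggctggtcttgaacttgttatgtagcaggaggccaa

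In the 300-base windows (250 before the start site to 50 after), promoters were found for 32 of the 39 genes. A CHR match was present in 24 of the 32 (75%), against 21.7% of 27025 genes with a promoter and 16.1% of the 8684 expressed ones. CCAAT was present in 25 (78.1%), against 41.1% and 43.1%. Both motifs occurred together in 22 (68.8%), against 9.65% and 7.88%. The E2F letters searched, TTTGGCGC or TTTCCCGC on either strand, were present in 1 of the 32 (3.1%, Ncapg). This held for 1.80% of all genes and 3.68% of expressed ones. Promoter GC content had a median of 57.8% in the 32 genes, 52.8% in all genes and 60.7% in expressed genes. A CHR match began within 50 bases of the start site in 24 of the 32 (75%), against 6.12% of all genes and 4.32% of expressed ones. Counting only genes with a CHR match, that was all 24, against 1653 of 5854 among all genes. Of 94 other mitotic genes from the lists described further on, 28.7% had a CHR match that near the start, 44.7% one anywhere in the window and 29.8% both motifs. The E2F letters were present in 13.8% of those 94. A CHR and a CCAAT match overlapped once, by 1 base in Cdca8. These matches describe letters in a window, and binding was not measured.

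**Figure D1:**
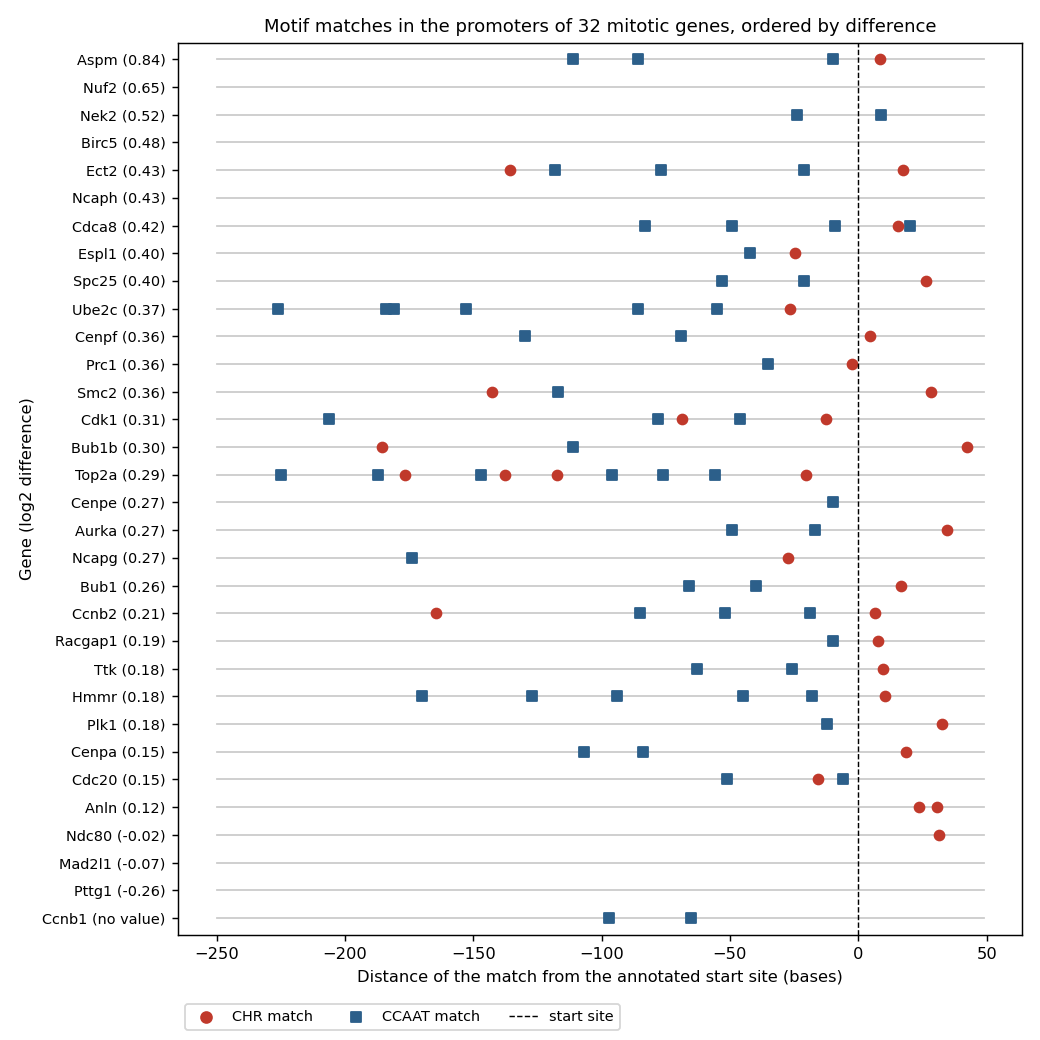
Matches to the CHR (red circles) and to CCAAT (blue squares) in the 300-base promoter windows of 32 mitotic genes, against distance from the annotated start site in bases, with genes ordered by log2 difference (in brackets). CHR matches gather around the start site with CCAAT matches mostly upstream of them, while Nuf2, Birc5, Ncaph, Mad2l1 and Pttg1 have neither. For Ect2 and Prc1, which have 2 annotated starts, the window with the lower coordinate is drawn.

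As a whole the mitotic genes were slightly higher on the knockout-titled array. Of 38 measured, 35 were higher and 3 lower, and the median log2 difference (knockout-titled minus wild-type-titled) was 0.27. Among all 18193 genes 48% were higher and the median difference was 0.00. The step of 0.25, a 1.19-fold change, was reached upward by 22 of the 38, against 6.63% of all genes. A difference of 0.5 or more (1.41-fold) was reached by 3, namely Aspm, Nuf2 and Nek2, against 0.588%. With the mean of each gene's probe sets these counts fell to 13 and 1 of 38, and with plain _at sets to 13 and 1 of 31. In the other direction 1 gene, Pttg1, was lower by 0.25 or more, against 9.6% of all genes. With 1 array per title no spread between cultures or animals can be estimated, so none of these differences has a test or an SD. Each value below is a single measurement.

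Low levels touch 3 of the genes. The mean of both arrays was at or above 6.71 for 36 of the 38, and Cenpf and Aspm fell short of it. Aspm and Espl1 reached 6.71 on the knockout-titled array only, and Cenpf on neither. The remaining 35 genes were at or above it on both arrays, with 32 higher, 3 lower and a median of 0.27. Among the 36 expressed, 33 were higher (56.9% of 10717 expressed genes were), 20 by 0.25 or more (7.6%) and 2 by 0.5 or more (0.681%). The median over expressed genes was 0.03.

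**Figure D2:**
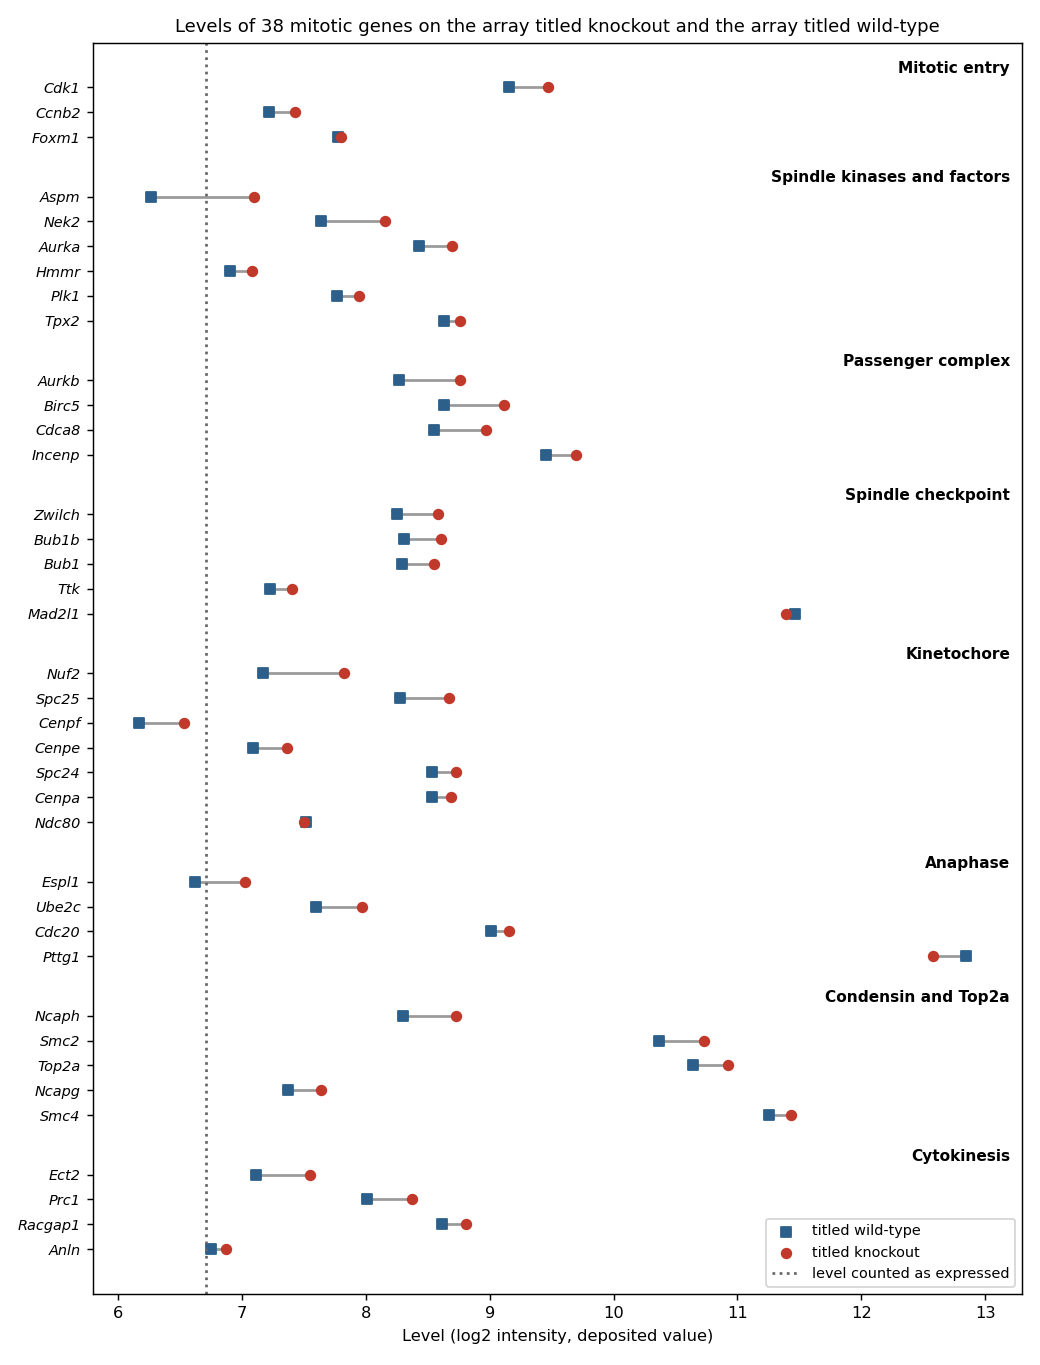
Log2 intensity of 38 mitotic genes on the wild-type-titled (blue squares) and knockout-titled (red circles) arrays, 1 value per array, by function; the dotted line is the level of 6.71 for expression. The red circle lies to the right in 35 genes and to the left in Mad2l1, Ndc80 and Pttg1; levels of different genes come from different probes and are not comparable.

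Of the mitotic entry genes, Cdk1 and Ccnb2 were higher on the knockout-titled array and Foxm1 was near 0. Cdk1, the kinase that starts mitosis, had a log2 level of 9.47 on the knockout-titled and 9.16 on the wild-type-titled array, a difference of 0.31 (1.24-fold). Ccnb2, which encodes the Golgi-associated cyclin B2, had levels of 7.43 and 7.22, a difference of 0.21. Foxm1, the transcription factor that activates G2 genes, was read at 7.80 and 7.77, a difference of 0.03. A second expressed probe set of Foxm1 differed by -0.21, so no direction can be given for it. The median of this group was 0.21 over 3 genes.

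All 6 spindle kinases and spindle factors were higher on the knockout-titled array, with a median of 0.22. Aspm, a spindle pole protein gene mutated in inherited microcephaly, had levels of 7.10 and 6.26, a difference of 0.84. Its lower level was under 6.71, and its higher level was 1.31-fold above 6.71. As 6.71 is a median over probe sets and not a detection limit, that fold is no lower bound. The other 4 probe sets of Aspm were all below 6.71 on average and differed by -0.35 to 0.48, so the size of this difference rests on 1 probe set. Nek2, a kinase that separates centrosomes, was at 8.15 and 7.64, a difference of 0.52 (1.43-fold). Its other 3 probe sets, all below 6.71 on average, differed by -0.42, 0.13 and 0.18, and the mean of its sets was 0.10. Aurka, the aurora kinase of centrosomes and spindle poles, was at 8.70 and 8.43, a difference of 0.27. A second Aurka probe set, below 6.71, differed by -0.20, and the mean of its sets was 0.04. Tpx2, the gene of the Aurka activator, differed by less in its used set, with levels of 8.76 and 8.63 and a difference of 0.13. The 4 expressed probe sets of Tpx2 ranged from 0.11 to 0.22. Plk1, the polo kinase that acts from centrosome maturation to cytokinesis, was at 7.94 and 7.76, a difference of 0.18. Hmmr, which encodes a hyaluronan receptor that also binds spindle microtubules, was at 7.08 and 6.90, a difference of 0.18. Its other 4 probe sets, each below 6.71 on average, were higher by 0.25 to 0.94.

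All 4 subunit genes of the chromosomal passenger complex, which corrects faulty kinetochore attachments and directs cytokinesis, were higher, with a median of 0.45. Aurkb, its kinase, had levels of 8.76 and 8.27, a difference of 0.49, and its second probe set differed by 0.44. Birc5, the survivin gene, was at 9.11 and 8.63, a difference of 0.48 (1.39-fold), from its only probe set. Cdca8, the borealin gene, was at 8.97 and 8.55, a difference of 0.42. Its 3 expressed probe sets ranged from 0.14 to 0.42, so the used one was the highest. Incenp, the scaffold that binds and activates the kinase, was at 9.70 and 9.45, a difference of 0.24. Of its 4 expressed probe sets 3 differed by 0.24 to 0.25 and the remaining one by 0.02. A further Incenp set, below 6.71, differed by -0.33, and the mean of its sets was 0.08. With plain _at probe sets only, which leave out sets whose suffix marks matches to several transcripts, 2 of the 4 genes remained and their median was 0.19, below the 0.29 of the condensin group under the same rule.

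Spindle checkpoint genes were higher except for Mad2l1, with a median of 0.26 over 5 genes. Mad2l1 is the only one of them past the 75th percentile of levels, so a filter there leaves its -0.07. Zwilch, a subunit of the complex that brings dynein and MAD proteins to kinetochores, had levels of 8.59 and 8.25, a difference of 0.34. Bub1b, which encodes the checkpoint protein BUBR1, was at 8.61 and 8.31, a difference of 0.30, and its second expressed probe set agreed at 0.28. Bub1, the kinase that recruits other checkpoint proteins, was at 8.55 and 8.29, a difference of 0.26. A second Bub1 probe set, below 6.71, differed by -0.34. Ttk, the MPS1 kinase at the top of the checkpoint, was at 7.41 and 7.23, a difference of 0.18. Mad2l1, which encodes the MAD2 inhibitor of CDC20, was at 11.39 and 11.46, a difference of -0.07. That is smaller than the median disagreement between a pair of expressed probe sets of the same gene, which was 0.084 over 4906 genes (95th percentile 0.31).

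In the kinetochore group 6 of 7 genes were higher, with a median of 0.27. That median was 0.045 with the mean of each gene's probe sets and 0.11 with plain _at sets only, so its size depended on the probe set. The NDC80 complex is the microtubule-binding unit of the kinetochore and has 4 subunits, all of them measured, and these did not move together. Nuf2 had levels of 7.82 and 7.17, a difference of 0.65 (1.57-fold). Ndc80 was at 7.50 and 7.52, a difference of -0.02. Spc25 was at 8.67 and 8.28, a difference of 0.40, and Spc24 at 8.73 and 8.54, a difference of 0.19. Nuf2, Ndc80 and Spc24 have a single probe set each, and a second set of Spc25, below 6.71 on average, differed by -0.37. Their disagreement therefore cannot be set against a second expressed reading. Cenpe, a kinesin that moves chromosomes to the spindle equator, was at 7.37 and 7.09, a difference of 0.27. Cenpa, the histone H3 variant that marks centromeres, was at 8.69 and 8.53, a difference of 0.15, with 0.02 in its second expressed set. Cenpf, a large outer kinetochore protein gene, was at 6.53 and 6.17, a difference of 0.36. Both of its levels were under 6.71, its other 2 probe sets differed by -0.19 and -0.17, and no fold is given.

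Anaphase genes pointed both ways, with a median of 0.26 over 4 genes, which turned to -0.057 for the 2 past the 75th percentile of levels (Cdc20 and Pttg1). Espl1, which encodes separase, the protease that cuts cohesin, was at 7.02 and 6.62, a difference of 0.40. Its lower level was under 6.71, and its higher level was 1.24-fold above 6.71, which again is no lower bound. Ube2c, a ubiquitin-conjugating enzyme of the anaphase-promoting complex, was at 7.97 and 7.60, a difference of 0.37. Cdc20, the activator of that complex and the target of the checkpoint, was at 9.16 and 9.01, a difference of 0.15. Its 3 expressed probe sets ranged from 0.14 to 0.31. Pttg1, which encodes securin, the inhibitor of separase, was at 12.58 and 12.84, a difference of -0.26. All 3 of its probe sets were expressed and lower on the knockout-titled array, by -0.15 to -0.26. It was the only one of 16 genes with several expressed probe sets in which all were lower.

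Condensin genes and Top2a were all higher, with a median of 0.29 over 5 genes. Ncaph, the kleisin subunit of condensin I, had levels of 8.73 and 8.30, a difference of 0.43 (1.35-fold), and 0.22 in its second set. Smc2, an ATPase subunit shared by both condensins, was at 10.73 and 10.37, a difference of 0.36, with 0.60 in a second expressed set. Its partner ATPase gene Smc4 was at 11.43 and 11.25, a difference of 0.18. The 3 expressed probe sets of Smc4 spanned only 0.17 to 0.18. Ncapg, a HEAT-repeat subunit of condensin I, was at 7.64 and 7.37, a difference of 0.27, and a second expressed set gave 0.64. Top2a, the topoisomerase that untangles sister chromatids, was at 10.93 and 10.64, a difference of 0.29, with 0.48 in a second expressed set. A further Top2a set, below 6.71, differed by -0.14. The second expressed reading was thus higher than the used one for Smc2, Ncapg and Top2a and lower for Ncaph.

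All 4 cytokinesis genes were higher, with a median of 0.28. Only Anln has plain _at sets, the used one at 0.12. Ect2, the exchange factor that activates RhoA at the division plane, had levels of 7.55 and 7.12, a difference of 0.43 (1.35-fold). Prc1, which bundles the microtubules of the central spindle, was at 8.37 and 8.01, a difference of 0.36, with 0.06 in its second set. Racgap1, a subunit of the centralspindlin complex that binds Ect2, was at 8.80 and 8.61, a difference of 0.19, with 0.33 in its second expressed set. Anln, the anillin gene of the contractile ring, was at 6.87 and 6.75, a difference of 0.12.

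Probe sets that the gene values did not use gave a second reading from the same 2 RNA samples. The 38 genes had 91 singly named probe sets, of which 53 were not used. Of these, 24 were expressed, from 16 genes, and 21 of the 24 were higher on the knockout-titled array, with a median of 0.20. The 3 that were lower belonged to Pttg1 (2 of them) and Foxm1. The 24 gave the sign of the used set in 23 cases, but only 8 reached 0.25. Since 35 of the 38 used sets were higher, agreement in sign adds little to the count of higher sets. Shares over all expressed probe sets were not computed. Of all expressed genes, 56.9% were higher and 7.6% by 0.25 or more. The 29 unused sets below 6.71 showed no direction, with 15 higher, 14 lower and a median of 0.01. Within a gene the expressed sets spanned a median of 0.18 and at most 0.38 (Ncapg), a span of similar size to the differences themselves.

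**Figure D3:**
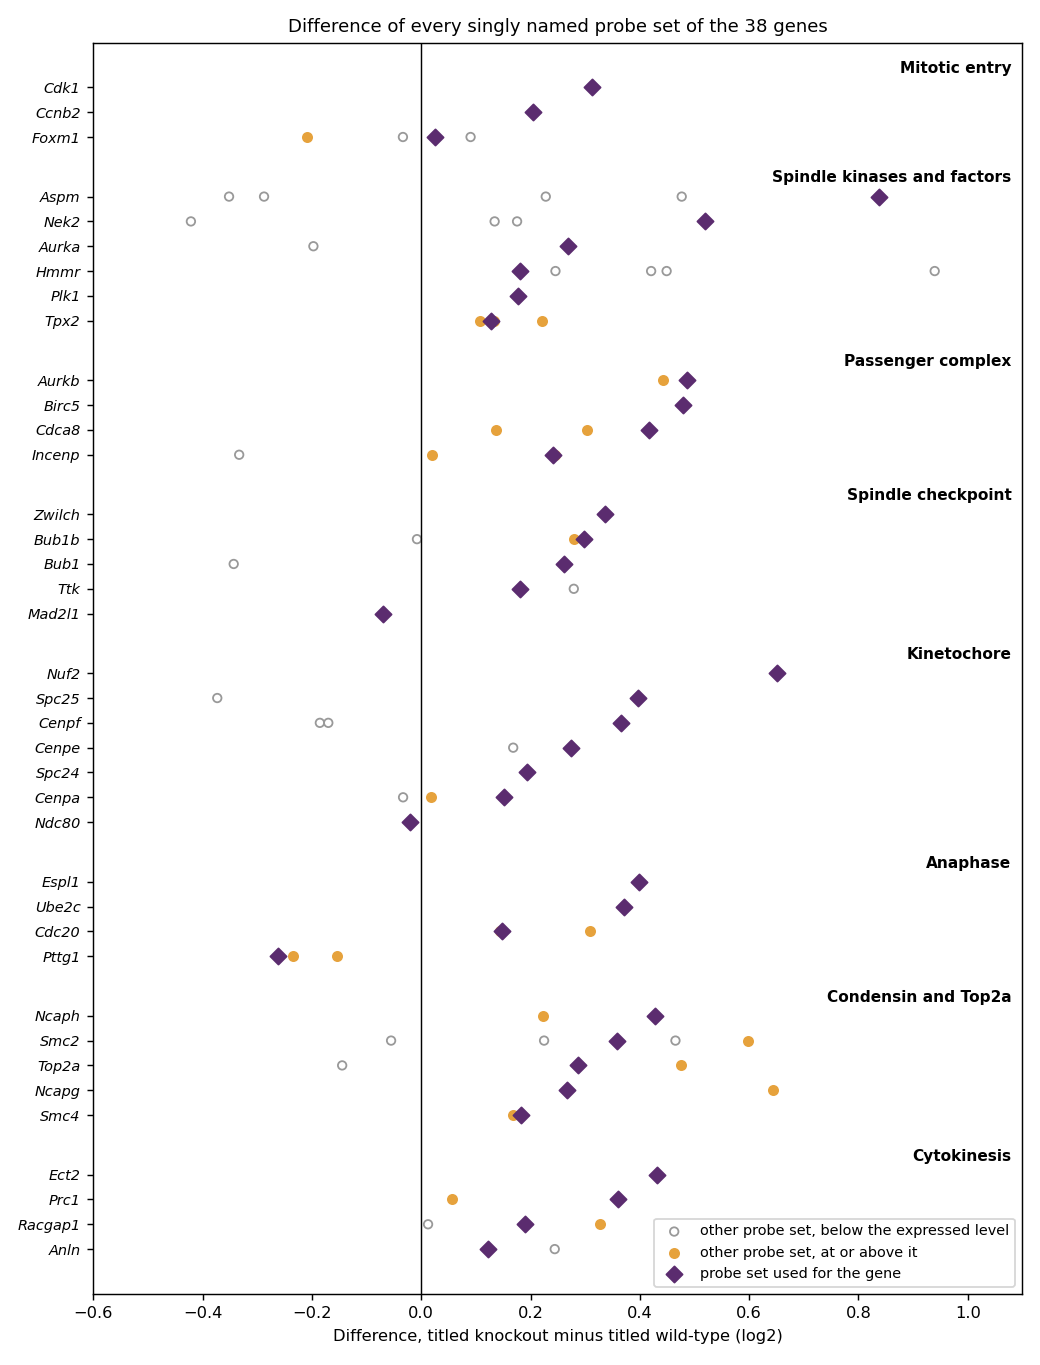
Log2 difference (knockout-titled minus wild-type-titled) of each of 91 probe sets of 38 mitotic genes: purple diamonds are the sets used, orange circles other expressed sets, open circles sets below 6.71. Orange circles lie right of 0 in 21 of 24 cases, while open circles fall on both sides (15 higher, 14 lower).

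Other genes of mitosis, from lists chosen by function, showed smaller medians. Among 37 other mitotic regulators 34 were expressed, of which 28 were higher, 10 by 0.25 or more, with a median of 0.16. Their highest were Cep55 (0.52), an abscission factor, and Arhgap11a (0.49), a RhoA regulator, and their lowest Nek6 (-0.35), a mitotic kinase, and Lin37 (-0.15), a DREAM subunit. Among 37 other kinetochore and centromere genes 32 were expressed, of which 27 were higher, 8 by 0.25 or more, with a median of 0.11. Here the extremes were Cenpk (0.49) and Sgo1 (0.37), the shugoshin that protects centromeric cohesin, and Spdl1 (-0.15) and Ska2 (-0.04), both of the outer kinetochore. These medians lie between that of the 38 genes and that of all expressed genes (0.03), and the gap was not tested. Over all expressed genes the shares were 56.9% higher and 7.6% higher by 0.25 or more.

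Subunits of the anaphase-promoting complex, most of which are needed outside mitosis too, had no common direction. In that list, which includes its enzymes and regulators, 9 of 18 genes were higher, against 56.9% of all expressed genes. None was higher by 0.25 or more, against 7.6%, and the list's median was -0.002. Its ends were Cdc23 (0.19) and Cdc16 (0.15), both core subunits, and Ube2d1 (-0.68) and Ube2s (-0.17), both ubiquitin-conjugating enzymes. Ube2c, Cdc20 and the substrate gene Pttg1, described above, differed by 0.37, 0.15 and -0.26.

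Condensin and cohesin, both ring complexes built on SMC proteins, gave different values. Over all 8 condensin I and II subunits, 4 of them named above, every difference was above 0, with a median of 0.33. The others were Ncapg2 (0.49), Ncapd2 (0.37), Ncapd3 (0.30) and Ncaph2 (0.03). Over the 5 core cohesin genes (Smc1a, Smc3, Rad21, Stag1 and Stag2) differences ran from -0.10 (Stag2) to 0.13 (Rad21), with a median of 0.04. This split into condensin and cohesin was made after the values were seen. In the list that held both (17 genes besides the 38, all expressed), 15 were higher, 5 by 0.25 or more, with a median of 0.12. The shares over all expressed genes were 56.9% and 7.6%. Esco2 (0.48), a cohesin acetyltransferase, was second highest after Ncapg2, and Mau2 (-0.08), a cohesin loader, second lowest after Stag2.

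**Figure D4:**
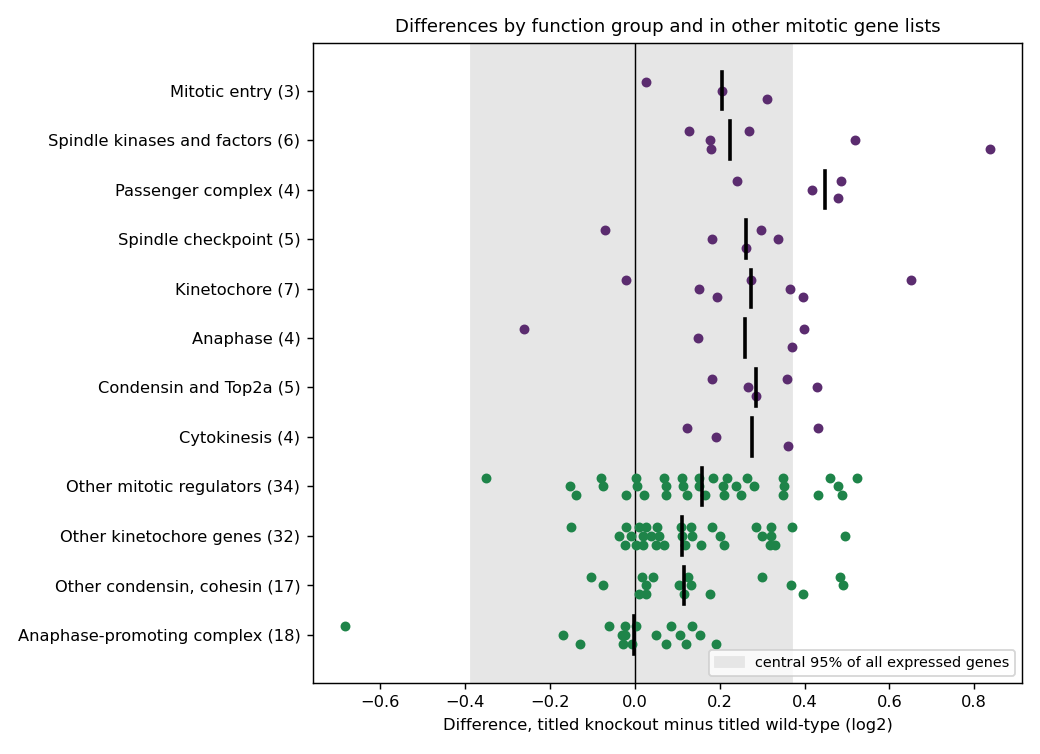
Log2 difference (knockout-titled minus wild-type-titled) by function group of the 38 genes (purple) and in 4 lists of other expressed mitotic genes (green), 1 point per gene, number of genes in brackets, black bars at medians; grey spans the central 95% of expressed genes (-0.39 to 0.37). Group medians run from 0.21 to 0.45, 11 of the 38 genes lie above the grey span and 0 below it, and the anaphase-promoting complex centres on 0.

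The promoter letters and the differences can be set side by side. The 22 measured genes with both CHR and CCAAT were all higher, by 0.15 (Cdc20) to 0.84 (Aspm), with a median of 0.29. Of the 5 with neither, Nuf2, Birc5 and Ncaph were higher by 0.43 to 0.65, and Mad2l1 and Pttg1 were at -0.07 and -0.26. Nek2 and Cenpe, with CCAAT alone, were at 0.52 and 0.27, and Anln and Ndc80, with a CHR alone, at 0.12 and -0.02. High differences thus occurred with and without these letters, and 35 of all 38 genes were higher. Among expressed genes outside the 38, 60.7% of the 664 with both motifs were higher, with a median of 0.04. Of the 4217 with neither, 55.3% were higher, with a median of 0.02. The lists of mitotic genes used here are not complete, so genes outside them can still be mitotic. Outside all these lists, 331 expressed genes had a CHR match within 50 bases of the start. Their median was 0.05 and 11.2% were higher by 0.25 or more, against 0.03 and 7.12% of the 8236 without one. In the lists of other mitotic genes the 22 with such a match had a median of 0.20, with 9 higher by 0.25 or more, and the 66 without one 0.07, with 11. Promoters with and without the match also differed in GC content outside the lists (medians 56.3% and 61.0%), and its part was not tested.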

How the data were processed

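The deposited table gives log2 intensities of 45101 probe sets on 2 Affymetrix arrays, ranging from 3.09 to 15.4, and their log2 scale was inferred from that range. Per the labels' protocols, biotin-labelled cRNA was made from total RNA with a 3′ IVT kit, while the summarisation and normalization are not given in sources used here. The arrays' sorted values lay within 0.063 of each other, so a change in total RNA per cell would not show.

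Probe sets were named from the platform annotation: 34945 had 1 gene, 932 several, 9160 none, and 64 were controls. By Entrez number 34741 matched RefSeq genes of GRCm38.p6. Each gene took its singly named probe set with the highest mean, giving 18193 genes, 10717 expressed. All listed mitotic genes are named, with the 2 highest and 2 lowest expressed genes of each other list. Members, lists and motifs were chosen with earlier results of these data known. Each title has 1 array, so differences are described by size, with no test. The gene summary was run on simulated data whose noise was too small to hide the added shift. Its outcome was thus fixed by the settings, and it checks the code only. A planned protein motif search was not run. Tools were matplotlib 3.10.9, statsmodels 0.14.6, NumPy 2.4.6 and pandas 2.3.3 under Python 3.11.15.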

Additional observations from a re-analysis of the deposited data

How the results depend on the processing

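Of 8 alternatives, all planned, 35 of the 38 genes kept their sign under every one that gave them a value. Part of this count was fixed in advance. The filters on level reuse the same differences, so no single gene could turn under them. For the 12 genes with 1 probe set, alternatives that change the probe set could not change the value. The planned pseudocounts did not apply to log2 values, leaving out an array was impossible, and precision is limited by the number of arrays and by the choice of probe set. No paired analysis was possible because each title has 1 array. A group or list median is given here where it moved by more than 0.084, a count where it moved by over 1.5 times, and a single gene where its sign turned or it fell from 0.5 or more to less than 0.25. The median of the measured genes stayed within that range throughout. With the mean of all probe sets of a gene, 13 genes were higher by 0.25 or more and 1 by 0.5 or more, and the kinetochore median was 0.045. With plain _at sets only (31 genes) these counts were 13 and 1, and medians were 0.11 (kinetochore), 0.19 (passenger complex) and 0.12 (cytokinesis, 1 gene). Only 9 genes reach the 75th percentile of levels, of which 7 were higher, 4 by 0.25 or more and 0 by 0.5 or more; the same filter gave 0.31 (entry, 1 gene), 0.36 (passenger complex), -0.070 (checkpoint, Mad2l1 alone), -0.057 (anaphase, 2 genes) and 0.074 (other mitotic regulators). With the median of expressed sets the condensin median was 0.38. The anaphase-promoting complex median turned to 0.038 (mean of sets) and 0.013 (median of expressed sets). Foxm1 turned to -0.032 (mean of sets), -0.092 (median of expressed sets), -0.019 (quantile normalization) and -0.00027 (median of expressed genes subtracted). Bub1 turned to -0.041 with the mean of sets and Spc25 to -0.37 with plain sets, each through a set below 6.71. Aspm fell to 0.18 with the mean of sets, and Nek2 to 0.10 with the mean of sets and 0.13 with plain sets. The loess alternative (span 0.3) moved none of these. Apart from these sets and the smaller numbers of genes, the cause was not tested.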
